A study of Mus musculus with 6 samples.

Results

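The aminoacyl-tRNA synthetases were described in 3T3-L1 cells, an established clonal line of mouse embryonic fibroblasts that can be driven to become adipocytes. The members were taken by name, as the protein-coding genes whose symbol is 1 amino acid letter followed by ars, with or without a 1, 2 or 3 at the end, together with Eprs, Farsa, Farsb and Tarsl2. The rule found 38 of the 21436 genes in the deposited table, 21 for enzymes of the cytosol and 17, with the suffix 2, for enzymes of the mitochondrion. The rule uses names and no measured value. The values given cover 37 of the 38, with 16 mitochondrial members.

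The study compared 2 groups of wild-type 3T3-L1 cells, with 3 RNA-seq libraries each. Both groups received the same adipogenic medium for 72 h, high-glucose DMEM with 10% FBS, rosiglitazone at 2 μmol/L, dexamethasone at 1 μmol/L, IBMX at 0.5 mmol/L and insulin at 10 mg/L. In the group called alone here the upper chamber of the Transwell held no cells, and in the co-culture group it held human umbilical cord mesenchymal stem cells (hucMSCs), behind a membrane with pores of 0.4 μm. RNA was read from the 3T3-L1 cells below, and the comparison asks how the presence of the human cells changed mRNA levels in them.

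Aminoacyl-tRNA synthetases join each amino acid to its own tRNA, the step that fixes the meaning of the genetic code, and the cell keeps separate sets for the cytosol and for the mitochondrion. Several cytosolic enzymes are held together with scaffold proteins in the multisynthetase complex, while the others act free of it. Genes of many cytosolic synthetases are textbook targets of ATF4, the transcription factor of the amino acid response, which is made when the kinase GCN2 senses uncharged tRNA or when other stress kinases act on the initiation factor eIF2.

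Levels are the FPKM that the authors deposited, a read number divided by gene length and by library size. Library totals recovered from them ran from 29603755 reads (co-culture replicate 1) to 38357563 reads (alone replicate 3). The fewest reads behind a tested synthetase in any library were 83 (Pars2). The markers of fibroblasts and preadipocytes were abundant, with 9 of 10 above a mean of 1 FPKM. Their summed level was 4498 to 4676 FPKM alone and 4581 to 4655 FPKM in co-culture. Of the 9 tested, 4 were called higher (Pdgfra, Pdgfrb, Dlk1 and Vim), 2 lower (Col3a1 and Thy1), and 3 were not called. Defining adipocyte markers were near 0, with 1 read of Adipoq (adiponectin) over the 3 alone libraries and none in co-culture, and the adipocyte sum of 51.1 to 57.2 FPKM alone and 58.1 to 59.6 FPKM in co-culture was nearly all Fabp4. The 7 macrophage and blood markers summed to 13.2 to 21.2 FPKM alone and 7.30 to 14.9 FPKM in co-culture, and of them the haemoglobin genes Hba-a1 and Hbb-bs were called lower. Ptprc, which marks white blood cells, had 7 and 3 reads over the alone and co-culture libraries, and endothelial and epithelial sums stayed at or below 0.085 FPKM. The part of these differences in the results was not tested. In bulk RNA, fewer cells of a type and less RNA per cell cannot be told apart, and nothing in the labels says that the replicates came from separate cultures, so each p measures only the spread between these libraries.

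Cytosolic synthetase mRNAs were mostly lower in co-culture, and mitochondrial ones mostly showed no detected change. Of the 21 cytosolic members, 17 fell and 1, Qars, rose. Of the 13 mitochondrial members with a mean of at least 1 FPKM, 1 fell, Mars2. A gene was called when limma on log2(FPKM + 1) gave a Benjamini-Hochberg adjusted p below 0.05 over all 10055 genes tested, of which 17.9% were called lower and 13.9% higher. The median log2 change was -0.21 over the cytosolic members (from -0.50 to 0.30), 0.002 over the mitochondrial members (from -0.31 to 0.07) and -0.004 over all genes tested. Levels of the 3 libraries of each group did not overlap for 18 cytosolic members that were lower in co-culture and 1 that was higher. Among all genes tested, 24.8% were apart in the lower direction and 21.3% in the higher direction. Among the 13 tested mitochondrial members, 2 were apart in the lower direction (Mars2, Yars2), and of the 3 below 1 FPKM, Ears2 was apart in the lower and Fars2 in the higher direction. The 2 compartments differ in level and in precision: the median mean level was 43.5 FPKM over cytosolic and 3.90 FPKM over mitochondrial members, and the median half-width of the 95% interval of the log2 change was 0.087 and 0.127.

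**Figure D1:**
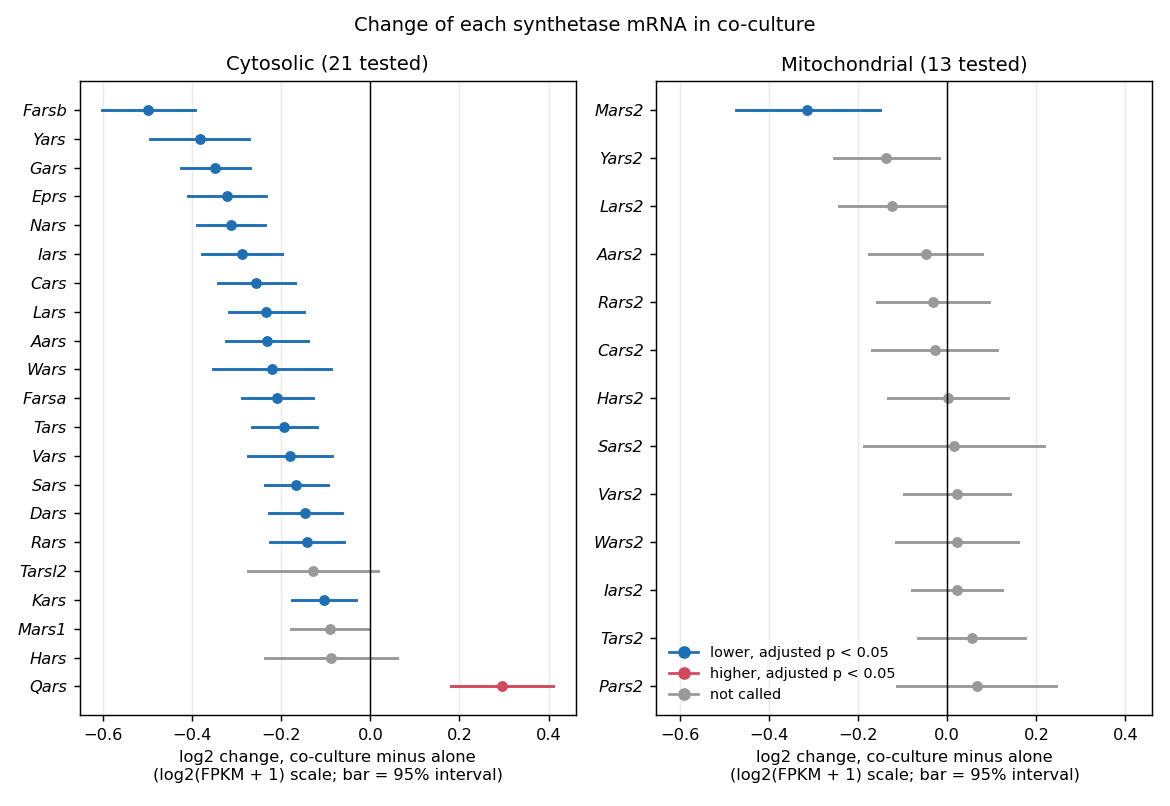
Log2 change, co-culture minus alone, of each tested synthetase on the log2(FPKM + 1) scale, cytosolic on the left and mitochondrial on the right; points are limma estimates, bars 95% intervals, and colour marks the call at an adjusted p below 0.05. The 17 blue cytosolic points lie between -0.50 and -0.10, Qars lies alone at 0.30, and 12 of the 13 mitochondrial points are grey.

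Summed over the 21 genes, the cytosolic level was 1118 ± 6.58 FPKM alone and 966.8 ± 21.5 FPKM in co-culture (SD, n = 3 each). The sums were 1120, 1111 and 1124 FPKM alone and 963.6, 989.6 and 947.1 FPKM in co-culture, so the groups did not overlap. The 16 mitochondrial genes summed to 85.6 ± 0.896 FPKM alone and 82.0 ± 2.08 FPKM in co-culture (SD, n = 3 each). These sums, 86.6, 84.8 and 85.4 FPKM alone and 83.7, 82.7 and 79.7 FPKM in co-culture, did not overlap either. The most abundant gene weighs most in such a sum: Lars2 was at means of 27.0 FPKM alone and 24.7 FPKM in co-culture, and was not called. Of the 13 tested mitochondrial members, 6 had a negative log2 change. The summed cytosolic level was 13.1 ± 0.119 times the mitochondrial one alone and 11.8 ± 0.237 times in co-culture. As a share of the FPKM of all genes, the cytosolic synthetases made up 0.275% alone and 0.2365% in co-culture.

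**Figure D2:**
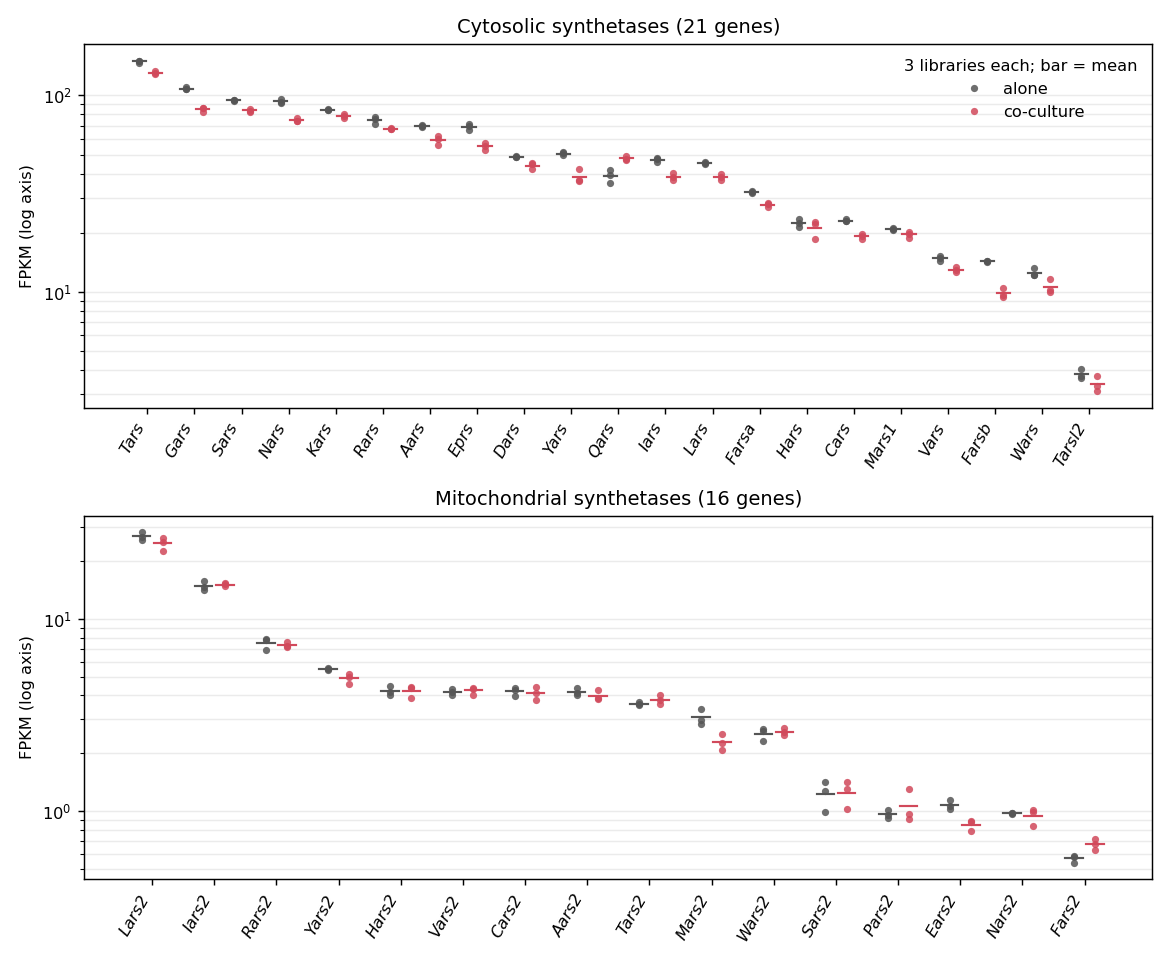
FPKM on a log axis of every synthetase in each of the 6 libraries, cytosolic above and mitochondrial below, ordered by mean level; points are libraries and bars the mean of 3. For most cytosolic genes the co-culture points sit below all alone points, with Qars the other way round, while most mitochondrial pairs overlap.

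Farsb, the beta subunit of the cytosolic phenylalanine enzyme (chr1:78417958-78488897, minus strand, mm10), had the largest fall of the members. Its level was 14.1, 14.3 and 14.4 FPKM alone and 9.37, 10.4 and 9.65 FPKM in co-culture. Every co-culture library was well below every alone library, a 1.45-fold lower mean with a log2 change of -0.50 ± 0.05 (SE, limma adjusted p = 3.65e-05). Farsa encodes the alpha subunit of the same enzyme, which is built of both subunits. It fell less, from 32.3 ± 0.504 to 27.8 ± 0.608 FPKM (SD, n = 3), 1.16-fold. The difference between the subunits was not tested. Exons of Farsb share 248 bases with Sgpp2 on the other strand, and Sgpp2 had 0 reads alone and 1 read in co-culture.

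Yars, the tyrosine enzyme (chr4:129189734-129219240, plus strand), was at 51.2, 49.6 and 50.7 FPKM alone and at 37.0, 42.0 and 36.7 FPKM in co-culture. The groups were apart although co-culture replicate 2 stood above the other 2 co-culture libraries, and the mean was 1.31-fold lower (log2 change -0.38 ± 0.05 SE, limma adjusted p = 3.16e-04). Its exons share 30 bases with C77080 on the other strand, a gene that was called higher (limma adjusted p = 0.0331).

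Gars, whose single gene supplies the glycine enzyme of both compartments (chr6:55038001-55079504, plus strand), was the second most abundant synthetase. It gave 107.3, 107.6 and 110.0 FPKM alone and 86.6, 86.0 and 82.0 FPKM in co-culture, 1.28-fold lower on average (log2 change -0.35 ± 0.03 SE, limma adjusted p = 5.15e-05). Kars, the lysine enzyme, likewise serves both compartments from 1 gene. It was at 84.6 ± 0.241 FPKM alone and 78.7 ± 1.65 FPKM in co-culture (SD, n = 3), 1.075-fold lower with a limma adjusted p of 0.0334, and this call depended on single libraries as given below. Without these 2 genes, 15 of 19 cytosolic members fell and 1 rose.

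Eprs carries both the glutamate and the proline enzyme in 1 protein and is the largest enzyme of the complex (chr1:185361417-185428360, plus strand). It was at 66.8, 69.6 and 71.3 FPKM alone and at 55.6, 56.9 and 53.0 FPKM in co-culture, 1.255-fold lower (log2 change -0.32 ± 0.04 SE, limma adjusted p = 2.26e-04). Nars, the asparagine enzyme, was at 91.8, 93.1 and 95.8 FPKM alone and at 74.2, 77.1 and 74.3 FPKM in co-culture, 1.24-fold lower (log2 change -0.31 ± 0.03 SE, limma adjusted p = 1.03e-04). In both genes the gap between the groups was wider than the range within either group.

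Iars, the isoleucine enzyme of the complex (chr13:49682130-49734267, plus strand), was at 45.6, 47.7 and 48.1 FPKM alone and at 38.2, 40.1 and 37.0 FPKM in co-culture, 1.23-fold lower (log2 change -0.29 ± 0.04 SE, limma adjusted p = 4.87e-04). Cars, the cysteine enzyme (chr7:143557230-143600090, minus strand), was at 23.4, 22.9 and 22.8 FPKM alone and at 19.7, 19.3 and 18.5 FPKM in co-culture, 1.204-fold lower (log2 change -0.26 ± 0.04 SE, limma adjusted p = 8.05e-04). The groups did not overlap for either gene.

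Qars, the glutamine enzyme of the complex (chr9:108508005-108515941, plus strand), went the other way. Its level was 41.9, 39.2 and 35.9 FPKM alone and 49.4, 47.1 and 47.5 FPKM in co-culture. The alone libraries were more spread than the co-culture ones, yet the lowest co-culture value was above the highest alone value. The mean was 1.23-fold higher, with a log2 change of 0.30 (95% interval 0.18 to 0.41, limma adjusted p = 0.00191). Qars was called higher under each of the alternatives run, which include leaving out each library in turn. Glutamine has no separate mitochondrial synthetase in mammals: mitochondrial glutaminyl-tRNA is made by an amidotransferase from tRNA charged with glutamate. The 3 subunits of that amidotransferase were not called, at 2.24 and 2.05 FPKM for Qrsl1, 1.43 and 1.62 FPKM for Gatb, and 7.59 and 8.04 FPKM for Gatc (means alone and in co-culture).

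The other cytosolic members that fell did so by smaller steps. Lars (leucine) and Aars (alanine) were each 1.18-fold lower, with log2 changes of -0.23 and limma adjusted p of 0.00125 and 0.00212. Wars (tryptophan) was also 1.18-fold lower, at -0.22 (limma adjusted p = 0.0173). Tars, the threonine enzyme and the most abundant member, was at 150.6, 146.2 and 150.4 FPKM alone and at 129.4, 132.7 and 128.8 FPKM in co-culture, 1.14-fold lower (limma adjusted p = 0.00157). Vars (valine), Sars (serine), Dars (aspartate) and Rars (arginine) had log2 changes of -0.18, -0.17, -0.15 and -0.14, with limma adjusted p of 0.00952, 0.00296, 0.0131 and 0.0152. Aars shares 14.3% of its annotated exon bases with Exosc6 on the same strand, and the effect on its read counts is not known. How the authors' counting treated strand and shared bases is not given in the sources used here.

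Of the cytosolic members, 3 did not pass. Mars1, the methionine enzyme of the complex, was at 20.9 ± 0.334 FPKM alone and 19.6 ± 0.631 FPKM in co-culture (SD, n = 3, limma adjusted p = 0.106), without overlap of the groups. Its exons share 68 bases with Ddit3 on the other strand. Hars, for histidine, was at 22.4 ± 1.01 and 21.1 ± 2.22 FPKM (limma adjusted p = 0.347), where co-culture replicate 1 at 18.5 FPKM lay below the other 2 at 22.6 and 22.1 FPKM. Tarsl2, a second cytosolic threonine enzyme, was the least abundant cytosolic member at 3.79 ± 0.218 and 3.39 ± 0.314 FPKM (limma adjusted p = 0.163).

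Of the 17 cytosolic calls in the lower direction, 4 were lost when 1 library was left out. Kars lost its call without any 1 of 5 libraries, all but alone replicate 1 (limma adjusted p from 0.0597 to 0.134). Wars lost it in the fits that left out alone replicate 2 (0.0679), replicate 1 of co-culture (0.0644) and replicate 3 of co-culture (0.0663). Dars lost it without co-culture replicate 1 (limma adjusted p = 0.0637), and Rars without co-culture replicate 3 (0.0526). The direction of these 4 genes stayed the same in every such fit.

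Enzymes of the multisynthetase complex and free enzymes both moved mostly down. Of the 8 complex members, Dars, Eprs, Iars, Kars, Lars and Rars fell, Qars rose and Mars1 was not called, with a median log2 change of -0.14. Of the 13 free cytosolic members 11 fell, with a median of -0.22. Over all genes tested, 17.9% were called lower and 13.9% higher. A difference between complex and free enzymes was not tested. Among the 3 scaffold proteins of the complex, Eef1e1 (AIMP3) had a log2 change beyond that of any enzyme, a difference that was not tested. It was at 28.3, 25.1 and 26.2 FPKM alone and at 13.0, 15.8 and 15.4 FPKM in co-culture, 1.80-fold lower (log2 change -0.81 ± 0.07 SE, limma adjusted p = 1.68e-05). Aimp2 fell 1.34-fold, from 16.5 ± 0.645 to 12.3 ± 0.718 FPKM (SD, n = 3, limma adjusted p = 2.66e-04). Aimp1 was at 58.2 ± 3.43 and 57.1 ± 0.868 FPKM and did not pass (limma adjusted p = 0.684).

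Mars2, the mitochondrial methionine enzyme (chr1:55237177-55240058, plus strand), was the mitochondrial member that passed. It gave 2.84, 3.42 and 2.98 FPKM alone and 2.52, 2.08 and 2.26 FPKM in co-culture, from 215 to 356 reads per library. The groups were apart and the mean was 1.35-fold lower (log2 change -0.31 ± 0.07 SE, limma adjusted p = 0.00868). The call was lost when genes below 1 FPKM were kept in the fit (limma adjusted p = 0.068). Mtfmt, the formyltransferase that turns mitochondrial methionyl-tRNA into the initiator form, was also lower, at 5.23 ± 0.132 FPKM alone and 4.21 ± 0.321 FPKM in co-culture (SD, n = 3), 1.24-fold (limma adjusted p = 0.00697).

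The other 12 tested mitochondrial members were not called by limma. At an unadjusted p below 0.05, 3 of the 13 were lower, Mars2 among them, and 0 were higher, and limma-voom on the recovered reads called 1 lower and 0 higher. Yars2 (tyrosine) was at 5.51 ± 0.060 and 4.92 ± 0.288 FPKM (adjusted p = 0.0735) and Lars2 (leucine), the most abundant mitochondrial member, at 27.0 ± 1.2 and 24.7 ± 1.81 FPKM (adjusted p = 0.110). Iars2, Rars2, Hars2, Vars2, Cars2, Aars2, Tars2, Wars2, Sars2 and Pars2 had log2 changes between -0.05 and 0.07, and their groups overlapped. Iars2 shares 22.9% of its exon bases with Rab3gap2 on the other strand, which was not called.

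Below 1 FPKM lay Ears2, Fars2 and Nars2, the mitochondrial glutamate, phenylalanine and asparagine enzymes, and they were not tested. Ears2 was at 1.06, 1.15 and 1.02 FPKM alone and at 0.881, 0.788 and 0.889 FPKM in co-culture, without overlap. In the fit of all genes without a filter its adjusted p was 0.0918. Fars2 was at 0.539, 0.579 and 0.587 FPKM alone and at 0.631, 0.715 and 0.674 FPKM in co-culture, apart in the higher direction (adjusted p = 0.162 in that fit). Exons of Fars2 share 501 bases (8.72%) with Nrn1 on the other strand. Nrn1 was far more abundant, at means of 37.6 FPKM alone and 35.7 FPKM in co-culture, and was not called. Nars2 was at 0.973 ± 0.008 and 0.946 ± 0.097 FPKM (SD, n = 3), and its groups overlapped (adjusted p = 0.839).

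Setting each cytosolic enzyme beside the mitochondrial enzyme for the same amino acid gives the contrast of the compartments within a library. Of 18 such pairs, 14 had both genes above the filter. The log2 ratio of cytosolic to mitochondrial level was lower in every co-culture library than in every alone library for 8 pairs (alanine, cysteine, proline, isoleucine, threonine with Tars, valine, tryptophan and tyrosine). It was higher in all 3 for methionine, and the groups overlapped for 5 pairs (histidine, leucine, arginine, serine and threonine with Tarsl2). The difference was negative in 13 of 14 pairs, with a median of -0.19. With 3 libraries a group the two-sided exact permutation test cannot go below p = 0.1, which all 9 pairs without overlap reached, for an adjusted p of 0.156 over the 14 pairs. Both threonine pairs share Tars2, and exons of Hars and Hars2 share 195 bases on opposite strands. The ratios are made from the member levels given above and are no separate evidence. The share of other gene pairs with ratios apart in this way was not computed. Among single genes tested, 24.8% were apart in the lower and 21.3% in the higher direction.

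The largest of these differences was for proline. On the log2(FPKM + 1) scale the ratio of Eprs to Pars2 was 5.14, 5.17 and 5.17 alone and 4.89, 4.88 and 4.55 in co-culture. The difference was -0.39, and Pars2 rests on 83 to 151 reads per library. The mean ratio of FPKM for this pair was 71.9 alone and 53.5 in co-culture. For isoleucine the ratio of Iars to Iars2 was 1.58, 1.68 and 1.56 alone and 1.27, 1.35 and 1.27 in co-culture, a difference of -0.31. For methionine the ratio of Mars1 to Mars2 was 2.51, 2.29 and 2.48 alone and 2.56, 2.78 and 2.61 in co-culture. The difference was 0.22, and the mean ratio of FPKM was 6.83 alone and 8.63 in co-culture. By FPKM, the cytosolic enzyme stood between 1.046 times (Tarsl2 to Tars2) and 78.6 times (Sars to Sars2) the mitochondrial one in cells alone.

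**Figure D3:**
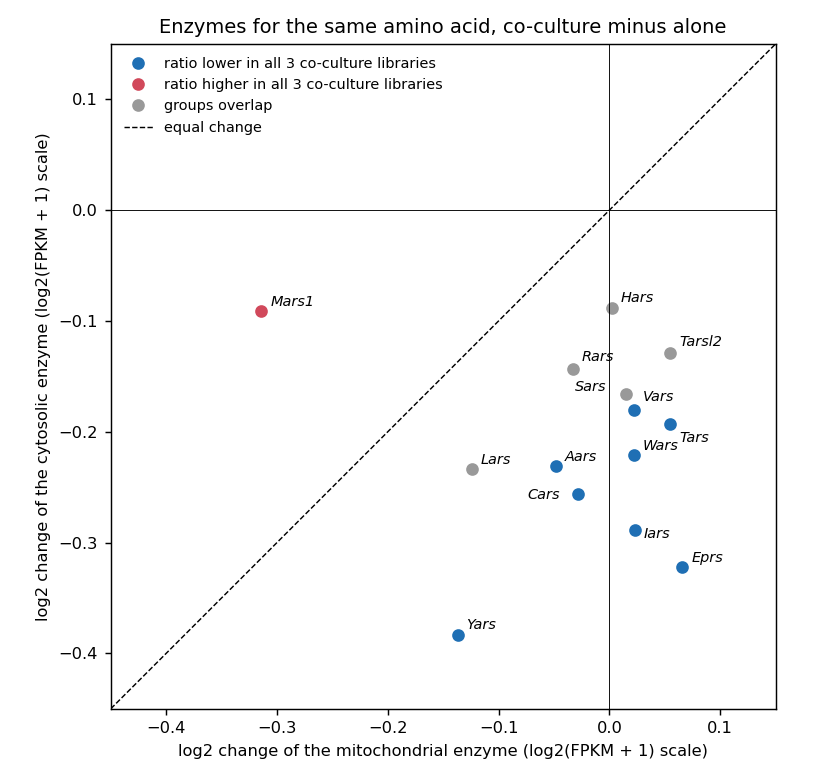
Log2 change of the cytosolic enzyme against that of the mitochondrial enzyme for the same amino acid, 14 pairs, named by the cytosolic gene; the dashed line marks equal change and colour marks whether the ratio was lower, higher or overlapping between the groups of 3 libraries. Points below the line number 13, and Mars1 is the one above it.

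Promoters of the members were read in the windows from 250 bases before to 50 bases after the gene start given by RefSeq (GRCm38.p6, the mm10 build), which were found for 14 cytosolic and 14 mitochondrial members. The letters TGATGCAA are the core of the C/EBP-ATF response element, to which ATF4 and C/EBP proteins bind as a pair. On either strand they stood in 4 of 14 cytosolic windows (28.6%) and 0 of 14 mitochondrial windows, against 1.03% of 27025 windows in the table and 0.638% of the 8152 tested genes with a window. With the sixth base open (TGATGNAA, which holds the first form) they stood in 5 cytosolic windows (35.7%), no mitochondrial window, and 2.37% of tested genes. These 5 genes are Aars, Gars, Iars, Tars and Yars. Each of the 5 fell in co-culture, and 4 of them are shown as 30 bases of the gene's own strand, 5′ to 3′, with the match in capitals:
Gars (chr6:55037960-55037989, plus strand): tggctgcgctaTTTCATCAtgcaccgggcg
Iars (chr13:49682126-49682155, plus strand): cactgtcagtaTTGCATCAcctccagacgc
Tars (chr15:11399655-11399684, minus strand): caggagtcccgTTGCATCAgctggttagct
Yars (chr4:129189895-129189924, plus strand): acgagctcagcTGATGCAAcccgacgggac

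In Gars, Iars and Tars the match is on the opposite strand and reads as the reverse complement, and in Yars it is on the gene's strand. The first base of the match lies 30 bases before the start in Gars and 15 before in Tars, and at base 8 of the transcribed side in Iars and base 4 in Yars. In Yars the start used by RefSeq's promoter lies inside the annotated gene span. The median log2 change was -0.29 over the 5 genes with TGATGNAA. It was -0.15 over the 9 cytosolic members whose window lacks the letters, of which 6 fell and 1 rose. The 9 include Farsb, which had the largest fall, and Qars, which rose. This difference was not tested. Of all 21 cytosolic members 17 fell, beside 17.9% of all genes tested. A match is a description of letters, not of binding, and windows were not found for Cars, Hars, Lars, Nars, Rars, Vars and Wars.

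The longer promoters of 3 members are shown for comparison: Tars, the most abundant member, which holds the response element core, Farsb, which had the largest fall and holds an E-box (CACGTG), and Qars, which rose and holds neither. Each run is the 250 bases before the start on the gene's strand, 5′ to 3′, with TGATGNAA or CACGTG on either strand in capitals:
Tars (chr15:11399659-11399908, minus strand): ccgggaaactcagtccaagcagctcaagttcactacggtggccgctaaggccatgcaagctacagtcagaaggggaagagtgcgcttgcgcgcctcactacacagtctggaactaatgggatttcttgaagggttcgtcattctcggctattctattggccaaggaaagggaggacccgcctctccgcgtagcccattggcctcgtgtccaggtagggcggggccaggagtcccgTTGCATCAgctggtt
Farsb (chr1:78488898-78489147, minus strand): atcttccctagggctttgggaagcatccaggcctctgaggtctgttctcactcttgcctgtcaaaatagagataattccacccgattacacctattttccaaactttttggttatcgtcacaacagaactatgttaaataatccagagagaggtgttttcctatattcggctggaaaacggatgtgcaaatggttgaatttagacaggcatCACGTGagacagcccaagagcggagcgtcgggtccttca
Qars (chr9:108507755-108508004, plus strand): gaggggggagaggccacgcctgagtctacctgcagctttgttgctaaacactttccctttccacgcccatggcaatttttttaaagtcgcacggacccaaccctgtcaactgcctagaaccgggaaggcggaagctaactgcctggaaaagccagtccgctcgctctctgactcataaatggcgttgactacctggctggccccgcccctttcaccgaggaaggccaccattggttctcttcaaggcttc

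Further motifs were searched in the same windows. The E-box CACGTG was in 4 cytosolic windows (Aars, Farsb, Iars and Tars, 28.6%) and 1 mitochondrial window (Ears2, 7.14%), against 12.2% of tested genes. The NRF1 core GCATGCGC, named for a factor that acts on many nuclear genes of mitochondrial proteins, was in no cytosolic window and in 3 mitochondrial ones (Rars2, Vars2 and Wars2, 21.4%), against 6.69% of tested genes. The ETS letters CCGGAAG were in 5 cytosolic (35.7%) and 4 mitochondrial windows (28.6%), against 22.5% of tested genes.

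Most genes listed around ATF4 fell in co-culture. Atf4 itself was at 526.2, 503.4 and 501.7 FPKM alone and at 434.7, 420.3 and 430.4 FPKM in co-culture, 1.19-fold lower without overlap (log2 change -0.25 ± 0.04 SE, limma adjusted p = 6.14e-04). Of the 12 sensors and regulators of its pathway, 7 fell, Atf4 among them, and 1 rose, with a median log2 change of -0.20. Of all genes tested, 17.9% were called lower and 13.9% higher. Trib3, a pseudokinase that ATF4 induces, fell 1.57-fold (adjusted p = 3.29e-06). Cebpb and Cebpg, partners of ATF4 on the response element, fell 1.46-fold and 1.55-fold (3.56e-06 and 1.11e-05), and Ppp1r15a (GADD34), which directs the removal of phosphate from eIF2, fell 1.34-fold (5.03e-05). Ddit3 (CHOP) and Eif2s1 (the alpha subunit of eIF2) also fell, 1.40-fold and 1.11-fold. Eif2ak4, the gene of GCN2, rose 1.145-fold (adjusted p = 0.0251), but lost its call when replicates 1 or 2 of alone, or 1 or 3 of co-culture, were left out (adjusted p from 0.0517 to 0.0921). The genes of the kinases HRI, PKR and PERK (Eif2ak1, Eif2ak2, Eif2ak3) did not pass, with means of 15.8 and 16.1 FPKM, 13.4 and 14.1 FPKM, and 4.42 and 4.51 FPKM.

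Many other textbook targets of ATF4 serve to make and import amino acids and in 1-carbon metabolism. The list used here also holds genes outside these roles, such as Ddit4, Eif4ebp1, Atf5 and Vldlr. Of the 25 listed, 24 were tested and 23 fell, beside 17.9% of all genes tested. The median log2 change was -0.55, beside -0.21 over the cytosolic synthetases and -0.004 over all genes tested. Cth, which makes cysteine from cystathionine, was 2.34-fold lower (44.8 ± 2.35 to 19.2 ± 0.471 FPKM, SD, n = 3, limma adjusted p = 5.85e-08). The mitochondrial folate enzyme Mthfd2 fell 1.83-fold (6.21e-07), the mitochondrial serine enzyme Shmt2 1.67-fold (2.12e-06) and the serine synthesis enzyme Psat1 1.46-fold (4.49e-06). Sesn2 did not pass (24.3 FPKM in both groups, limma adjusted p = 0.971), Cbs was below the filter, and Nupr1 lost its call without co-culture replicate 3 (0.0585). This list was chosen with results of these libraries known, so its direction is no independent evidence, and the difference in size from the synthetases was not tested.

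**Figure D4:**
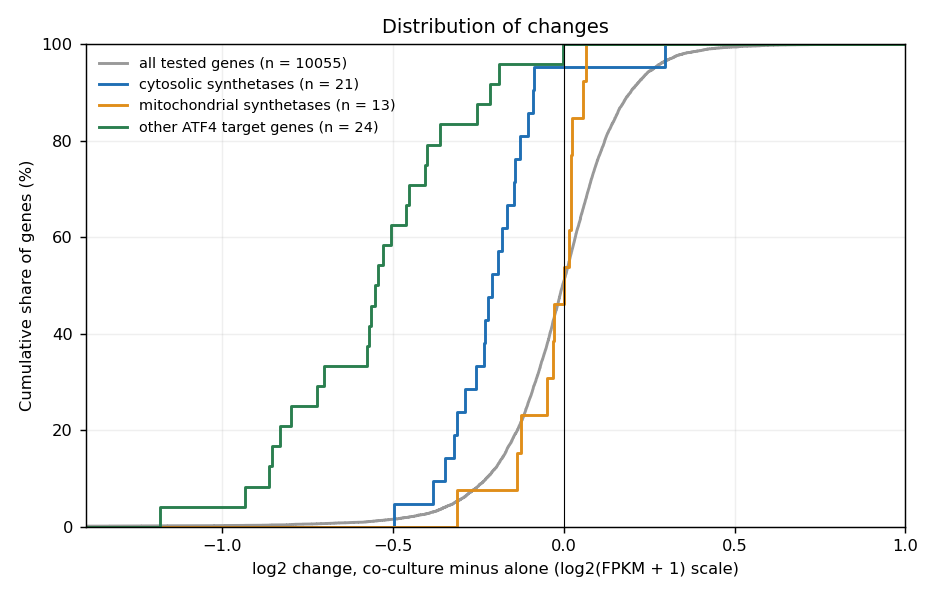
Cumulative share of genes by log2 change, co-culture minus alone, for all 10055 tested genes, the 21 cytosolic and 13 mitochondrial synthetases and 24 other ATF4 targets; the horizontal axis ends at -1.4 and 1.0. The cytosolic curve lies left of that of all genes (median -0.21 against -0.004) and right of that of the other targets (-0.55), and the mitochondrial curve crosses the middle near 0.

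The counts for the steps before and after charging are small and stand beside 17.9% of all tested genes called lower and 13.9% called higher. Of 12 genes for tRNA export and end processing, 2 fell (Xpot and Xpo5) and 1 rose (Rtcb). Xpot, the exportin that carries tRNA out of the nucleus, was 1.28-fold lower (28.1 ± 0.991 to 22.0 ± 0.837 FPKM, SD, n = 3, limma adjusted p = 2.54e-04), and Xpo5, known for exporting microRNA precursors, 1.18-fold lower (0.00272). Rtcb, the tRNA ligase, was 1.086-fold higher (0.0282), but not without any 1 of 5 libraries, all but alone replicate 1 (adjusted p from 0.055 to 0.109). Of 5 genes that deliver charged tRNA and move the ribosome in the cytosol, Eef2 rose 1.108-fold (1343 ± 42.4 to 1489 ± 16.8 FPKM, SD, n = 3, limma adjusted p = 0.0208), again not without any 1 of the same 5 libraries (0.0522 to 0.0913). Without alone replicate 1, 2 of the 5 were called higher. Eef1a1, which carries charged tRNA to the ribosome, was at 7079 ± 381.7 and 7408 ± 104.1 FPKM (adjusted p = 0.416). Of the 5 mitochondrial counterparts, Tsfm fell 1.19-fold (7.52 ± 0.488 to 6.30 ± 0.350 FPKM, adjusted p = 0.0157), a call lost when alone replicate 3 (0.0529) or the second co-culture library (0.059) was left out. Limma-voom called 0 of the 5 (limma: 1 at an unadjusted p below 0.05). Of 4 trans-editing factors, which clear wrongly charged tRNA, limma and limma-voom each called 0, and at an unadjusted p below 0.05, 1 was higher, Dtd1 (5.87 ± 0.156 to 6.67 ± 0.538 FPKM, adjusted p = 0.0659). Without co-culture replicate 1, limma called 1 of the 4 higher.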

How the data were processed

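RNA-seq libraries of 3T3-L1 cells, 3 alone and 3 in co-culture, were analysed from the table of FPKM deposited by the authors (21436 genes). Per the submitters' processing notes, fastp, HISAT2, HTSeq and mm10 were used. The sources used here do not give versions, annotation, strand setting or the treatment of human reads. Each value column was tied to a sample through its name (0 left over). Whole reads, recovered from the FPKM steps for all 21436 genes (scale set by the 1545 bp of mt-Co1), gave library totals and a limma-voom alternative. In 99.2% of the 12045 genes with at least 100 reads, the length was then whole within 0.001 bp.

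The test was limma 3.58.1 in R 4.3.3 (trend, no replicate block) on log2(FPKM + 1), which understates changes of low genes, for the 10055 genes averaging 1 FPKM or more. The other 11381 were not tested. Calls needed a Benjamini-Hochberg adjusted p below 0.05. The fit was tested on simulated reads with a fixed spread that was not estimated from these libraries. It recovered 4% of 50 changes of 1.1-fold, 36% at 1.2-fold, 98% at 1.5-fold and 100% at 2.0-fold. Of its calls there, 4.03% were unchanged genes. Per-library values are given for the 8 called cytosolic members with the largest absolute change, called mitochondrial members, members called against their compartment's direction and Atf4, and names for up to 4 called genes per list by smallest p. Tars, Kars, Farsa, Ears2, Eef1e1, members that did not pass and some list members are further examples, chosen after their values were seen. A member is not reported here. Members and lists were chosen with earlier results of these data known. Exon overlaps come from GENCODE M21 and promoters from RefSeq. Alternatives were pseudocounts 0.1 and 0.01, no filter or 5 FPKM, median-ratio, TPM and quantile scaling, no trend, array weights, a replicate block, leaving out each library, adjusted p below 0.01 and limma-voom.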

Additional observations from a re-analysis of the deposited data

How the results depend on the processing

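Of the 19 called synthetases, 14 kept their call under every alternative run, none changed direction, and no uncalled one gained a call. Leaving out 1 library gave 15 to 18 members called lower in all (14 to 17 cytosolic, 1 mitochondrial). The medians were then -0.220 to -0.188 (cytosolic) and -0.026 to 0.013 (mitochondrial, the lowest without alone replicate 3). Pairs with a lower ratio then numbered 8 to 11. That count cannot fall when a library is left out, since groups without overlap stay apart, so it is no check of the pairs. Mitochondrial members called lower were 0 without a filter and 0 with a filter at 5 FPKM, where Mars2 is not tested and the mitochondrial median was -0.078. In the 250 bases before the start alone, 3 cytosolic members held TGATGNAA and 2 held the exact core TGATGCAA. Correlations of deviations between libraries of the same replicate number were -0.044, 0.109 and -0.083, and between different numbers -0.123 to 0.171. With so few libraries these values cannot decide whether the replicate numbers pair the libraries. With a replicate block, 17 members were called lower, 16 of them cytosolic, and Kars lost its call (limma adjusted p = 0.0644). Kars also lost it without a trend (0.0792), Dars under quantile scaling (0.0804) and Wars without a filter (0.0937). Quantile scaling gave 6 pairs and TPM scaling 7. No scaling put the median of all genes beyond 0.013. Among tested members Pars2 had the fewest reads in a library (83 to 151), and the 95% interval of its log2 change ran from -0.112 to 0.244.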

Other observations

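The synthetases fall into 2 structural classes with unrelated catalytic folds. Among cytosolic members, 8 of 10 class I enzymes fell and 1 rose (median log2 change -0.23), and 9 of 11 class II enzymes fell (median -0.19). Among tested mitochondrial members, 1 of 8 class I enzymes fell (Mars2, median -0.03), and the 5 class II enzymes had a median of 0.015, with none called by limma and none at an unadjusted p below 0.05. These counts stand beside 17.9% of all tested genes called lower and 13.9% called higher. No difference between the classes was tested.

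Across the 21 cytosolic genes Spearman's rho between mean FPKM and log2 change was -0.105, and across the 13 mitochondrial genes -0.368, as descriptions only, since all genes come from the same 6 libraries. Between gene length and log2 change rho was -0.308 and 0.538.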
